A study of Rattus norvegicus with 12 samples.

Results

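The interleukin-1 (IL-1) family was followed on 12 one-colour expression arrays of rat tissue through 10 genes, Il1a, Il1b, Il1rn, Il1r1, Il1r2, Il1rap, Il1rl1, Il33, Il18 and Casp1. The genes were chosen for their membership of the family, and the list was selected on the measured log2 ratios of injected over contralateral nerve in each rat type, so the nerve ratios are given as a description and support nothing. A probe, the DNA sequence printed on the array, was assigned to a gene through its RefSeq transcript accession. In this way 9 of the 10 genes had a probe (12 probes in all), against 15159 genes named on the whole array. No probe matched Il1r1, the signaling receptor of IL-1α and IL-1β, and it was not analysed here.

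The rats were female and 8 weeks old, and received 50 µg of the myelin basic protein peptide MBP84-104 in 5 µl into the left sciatic nerve, with PBS into the right. Sprague-Dawley rats, called wild-type below, were sampled at day 12, and athymic nude rats (Hsd:RH-Foxn1rnu), which lack a thymus and so most T cells, at day 7. Injected and contralateral nerve, left and right L4 and L5 dorsal root ganglia (DRG), and dorsal cord at the lumbar enlargement and above it gave 6 comparisons, each of 1 array against 1 array, and each array held RNA pooled from 3 rats. The labels were followed here, whereas the study's methods describe the controls of the nude rats as heterozygotes of the same stock (rnu+/-), with other animal numbers and 1 time point, so whether the wild-type arrays differ from the nude ones by strain is not settled. Rat type, strain and day cannot be told apart, and a slide of their own held the DRG and cord arrays of wild-type rats.

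IL-1β and IL-18 are made as inactive precursors that caspase-1, the Casp1 product, cleaves inside inflammasomes. IL-1α and IL-1β signal through a receptor of IL-1R1 and the accessory protein IL-1RAP, whereas the receptor antagonist (Il1rn) occupies IL-1R1 without signaling and the decoy receptor (Il1r2) binds ligand without passing a signal on. IL-33 is stored in nuclei of stromal and glial cells, is released on damage and acts through the Il1rl1 product, ST2, together with IL-1RAP. In injured nerve the family is known for drawing in leukocytes and sensitizing nociceptors.

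Signals are background-corrected scanner units, and levels are log2 signals minus the array's median over all probes, so that 0 is the median probe. A probe was well above background when the scanner software flagged most of its spots on that array so. Where only 1 array of a comparison measured a gene, the other array was set to the lowest signal of any probe well above background on it, and the ratio is a bound. With 1 array per condition there is no replicate error and no test. The standard errors given are between spots of a probe on the same array and cover spotting and scanning only. Fewer cells of a type and less RNA per cell cannot be told apart in these tissue samples.

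The median probe signal of an array ran from 15.4 to 74.9, and 59.5% to 76.9% of spots were well above background. The lowest of both belonged to the injected nude nerve, which stood apart from its contralateral partner with a median signal of 49.0. Over all 9456 genes of that comparison the median log2 ratio stood at -0.38, against -0.05 in the wild-type nerve, so the nude nerve ratio of each measured member is also given relative to that median. No value of the nude nerve comparison can be had without this array. The labelled tissues held their markers. Scn10a, a sodium channel of nociceptors, was well above background on 4 of 4 DRG arrays and 0 of 4 nerve and cord arrays. Prx, a protein of peripheral myelin, had levels of 4.79 to 6.58 in nerve, and Mog, an oligodendrocyte protein, 6.05 to 6.69 in cord. Cd3e, a T cell receptor subunit, was well above background on no array of either rat type, whereas Cd3d, another subunit, was so on all 12.

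The members Il1b, Il1rn, Il18, Il33 and Casp1, were well above background on all 12 arrays, and the others were measured in some tissues only. Il1r2 was measured on 4 of 4 nerve arrays, 3 of 4 DRG arrays and 0 of 4 cord arrays. Il1rl1 was measured on 3 of 4 nerve arrays and on no DRG or cord array. Il1a and Il1rap had the opposite distribution, with 4 of 4 cord arrays and no nerve or DRG array. The second Il1a and Il1rap probes were never well above background.

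**Figure D1:**
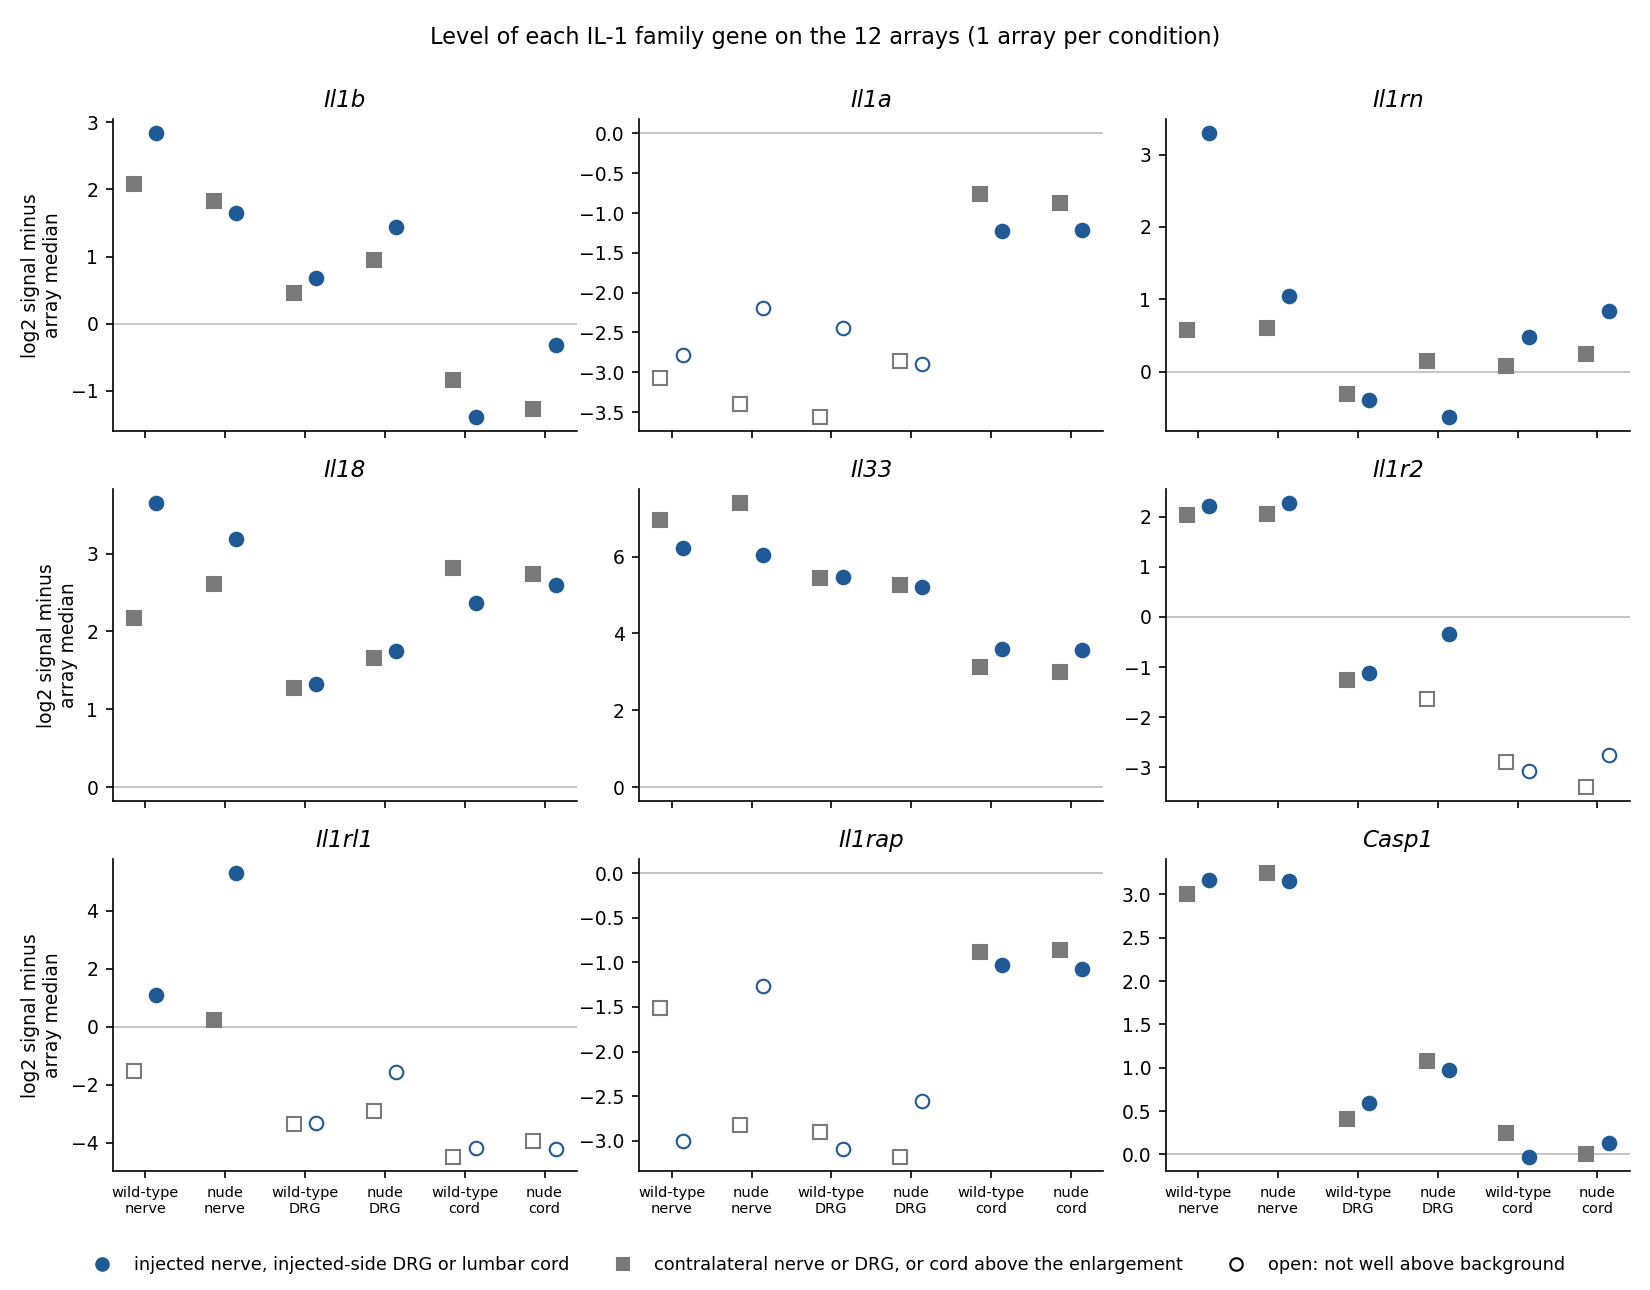
Level of each of the 9 measured members on the 12 arrays, as log2 signal minus the array median (y axis, a scale of its own in each panel), by tissue and rat type. Blue circles are injected nerve, injected-side DRG or lumbar cord, grey squares their partners, and open symbols were not well above background. Il1rn and Il18 stand highest on the injected wild-type nerve and Il1rl1 on the injected nude nerve, whereas Il1a and Il1rap are filled in cord only.

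In the injected wild-type nerve, the receptor antagonist Il1rn, the IL-33 receptor Il1rl1 and the cytokine Il18 were at least 2-fold higher than in the contralateral nerve, and no member was at least 2-fold lower. Of the 9 members with a probe, 7 passed the filter on low signals in this comparison. Among all 10213 genes compared, 4.68% passed 2-fold on the injected side and 4.08% on the contralateral side, shares from which nothing is read here because the genes were selected with this contrast in view. The median of the 7 members was 0.75 on the log2 scale.

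Il1rn had a signal of 354 in the injected and 49.5 in the contralateral wild-type nerve. On the nude pair it had 31.6 and 74.5, a lower raw signal on the injected side of an array pair whose medians were 15.4 and 49.0. After centring, the wild-type ratio was 6.56-fold (log2 2.71, spot SE 0.09) and ranked 33rd of 10213 genes. The nude ratio was 1.35-fold (log2 0.44, spot SE 0.11), or 0.82 above the median of all genes there. The levels show 1 array well apart, since the injected wild-type nerve reached 3.29 while the 11 others lay between -0.63 and 1.04.

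Il18 had signals of 452 and 149.6 in the injected and contralateral wild-type nerve, a ratio of 2.77-fold (log2 1.47, spot SE 0.08). The nude signals were 140.1 and 299, and the centred ratio was 1.49-fold (log2 0.58, spot SE 0.01), or 0.96 above the median of all genes. Both injected nerves had levels above both contralateral nerves (3.65 and 3.19 against 2.18 and 2.61). Il18 was lowest in DRG, at 1.27 to 1.75, and lay at 2.37 to 2.82 in cord.

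Il1b had signals of 257 and 140.4 in the injected and contralateral wild-type nerve, a ratio of 1.68-fold (log2 0.75, spot SE 0.07, 8 spots on each array). The nude signals were 48.2 and 174.4, and the log2 ratio was -0.18. Its direction depends on the scaling, since it stood 0.20 above the median of all genes and became 0.11 when arrays were scaled to the 75th percentile. The 4 nerve levels overlapped between the sides, the injected nerves standing at 2.83 and 1.65 and the contralateral nerves at 2.08 and 1.83. Across tissues Il1b was highest in nerve, followed by DRG at 0.45 to 1.44 and cord at -1.39 to -0.31. In the nerve, the ratio of the antagonist exceeded that of the ligand it competes with. Il1rn minus Il1b was 1.97 on the log2 scale in the wild-type nerve, 3.91-fold, and 0.62 in the nude nerve. With normexp background correction, which adds an offset to all signals, the wild-type nerve value was 1.27. Outside the nerve, Il1rn minus Il1b was -0.31 in wild-type and -1.26 in nude DRG, and 0.96 in wild-type and -0.38 in nude cord.

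Il33 stood lower on the injected side. Its signals were 2702 and 4113 in the injected and contralateral wild-type nerve and 1008 and 8216 in the nude nerve. The log2 ratio was -0.73 (spot SE 0.04) in wild-type and -1.35 (spot SE 0.04) in nude rats, the latter 2.56-fold lower and -0.97 relative to the median of all genes. Both injected nerves lay below both contralateral nerves, at 6.23 and 6.03 against 6.96 and 7.39. The nude value was not past 2-fold under quantile normalization or in the authors' normalized values, at -0.98 in each. Beside it, 1 of 6 measured Schwann cell markers was at least 2-fold lower in the wild-type nerve (Prx, summed signal of the list 1975 against 3304 times the array median) and 3 of 6 in the nude nerve (Prx, Egr2 and S100b, 1821 against 3465). Of 10 fibroblast and perineurial markers, none in wild-type and 3 in nude rats (Pi16, Cldn1 and Itgb4) were at least 2-fold lower. Of all genes, 4.08% were so on the wild-type pair and 13.5% on the nude pair. The list medians were -0.03 and -0.49 for these markers and -0.67 and -0.96 for the Schwann cell markers. Those of all genes were -0.05 and -0.38. The part of Schwann cells, fibroblasts and perineurial cells in the Il33 ratio was not tested.

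Of the receptors, Il1rl1 differed most between the sides. Its brighter probe had signals of 77.8 in the injected and 11.4 in the contralateral wild-type nerve, where it was not well above background, so it was at least 5.81-fold higher. In nude rats the signals were 599 and 57.0, a centred ratio of 33.5-fold (log2 5.07, spot SE 0.05, or 5.45 above the median of all genes), rank 2 of 9456 genes. Il1rl1 was the only measured member whose raw signal was higher on the injected than on the contralateral nude nerve, by 10.51-fold, so its direction does not rest on the scaling of that dim array.

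A second Il1rl1 probe, designed on another RefSeq transcript of the gene, did not share this difference. Its signals were 16.5 and 24.5 in the injected and contralateral wild-type nerve, a log2 ratio of -0.70 (spot SE 0.17). In nude rats they were 10.48, not well above background, and 47.2. The gene is known to give a membrane-bound receptor and a shorter secreted form that captures IL-33, through different transcripts. Which form each probe detects is not given in the sources used here. The mean over both probes gave log2 ratios of 0.97 (wild-type) and 2.29 (nude), and with normexp background correction the brighter probe gave 0.85 and 2.91, so the wild-type call was lost in both.

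**Figure D2:**
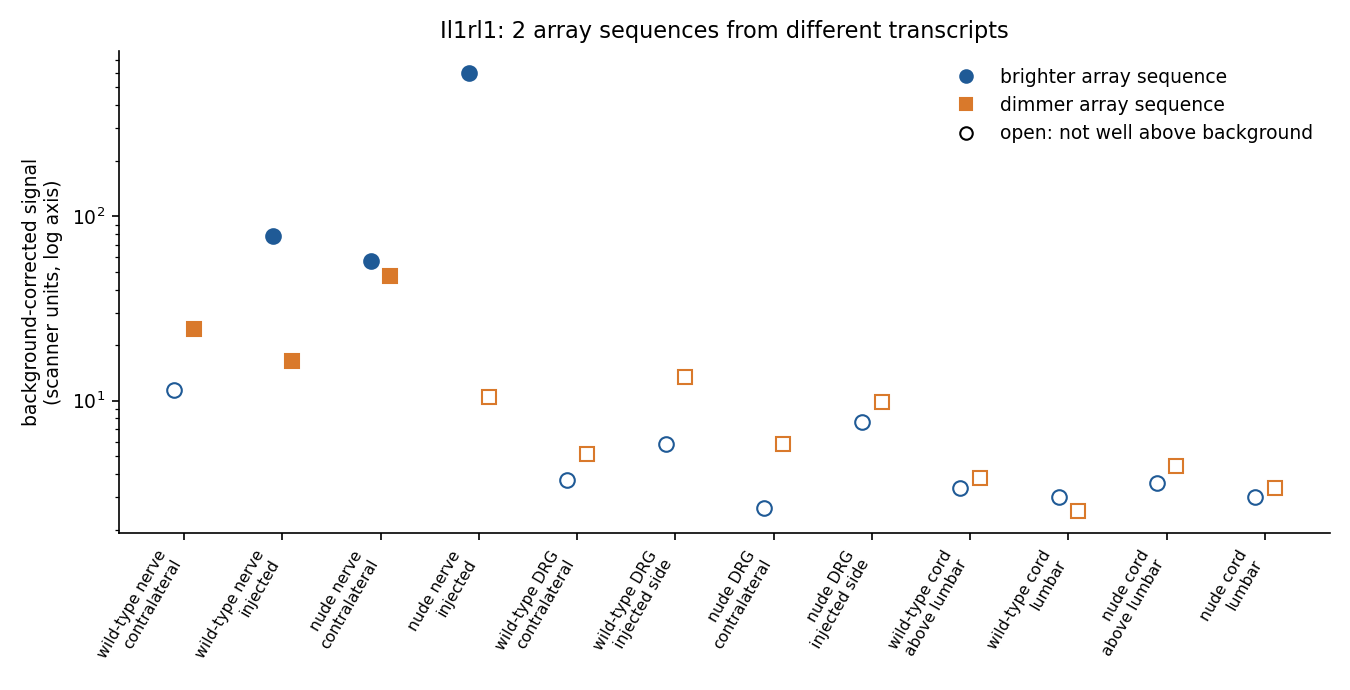
Background-corrected signal (scanner units, log axis) of the 2 Il1rl1 probes on each of the 12 arrays. Circles are the brighter and squares the dimmer probe, and open symbols were not well above background. The brighter probe reached 599 on the injected nude nerve, where the dimmer probe read 10.48.

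Il1r2, the decoy receptor, stood at 2.03 to 2.26 on the 4 nerve arrays, with both injected nerves just above both contralateral ones. Its signals were 167.1 and 135.4 in the injected and contralateral wild-type nerve, a log2 ratio of 0.18 (spot SE 0.08), and 73.8 and 202.8 in the nude nerve, a log2 ratio of 0.22 (spot SE 0.10), or 0.60 above the median of all genes. Casp1, the processing protease, had signals of 324 and 265 in the wild-type nerve, a log2 ratio of 0.16 (spot SE 0.10), and 136.5 and 464 in the nude nerve, a log2 ratio of -0.09 (spot SE 0.12) that stood 0.29 above the median of all genes, so that its direction too depends on the scaling. Casp1 levels nevertheless separated the tissues, at 3.00 to 3.24 in nerve, 0.41 to 1.08 in DRG and -0.03 to 0.24 in cord.

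Of the 7 members measured in the nude nerve, Il1rl1 was at least 2-fold higher and Il33 at least 2-fold lower. Of all 9456 genes, 7.52% passed 2-fold upwards and 13.5% downwards. That split depended on the scaling, since 711 genes were higher and 1280 lower with median centring but 1128 higher and 530 lower with the 75th percentile. By its brighter probe the receptor stood apart from its ligand: Il1rl1 minus Il33 was 3.27 or more on the log2 scale in wild-type rats, where it is a bound, and 6.42 in nude rats. The wild-type value was 3.05 under quantile normalization, 1.70 with the mean over both probes and 1.52 with normexp, and the nude value was 3.64 with the mean over both probes. The second Il1rl1 probe, at -0.70 in wild-type, did not stand apart from Il33 at -0.73. With normexp background correction the median of all genes in the nude comparison was -0.87, and the nude ratios of Il1rn, Il18 and Il1r2 were then -0.05, -0.25 and -0.46.

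**Figure D3:**
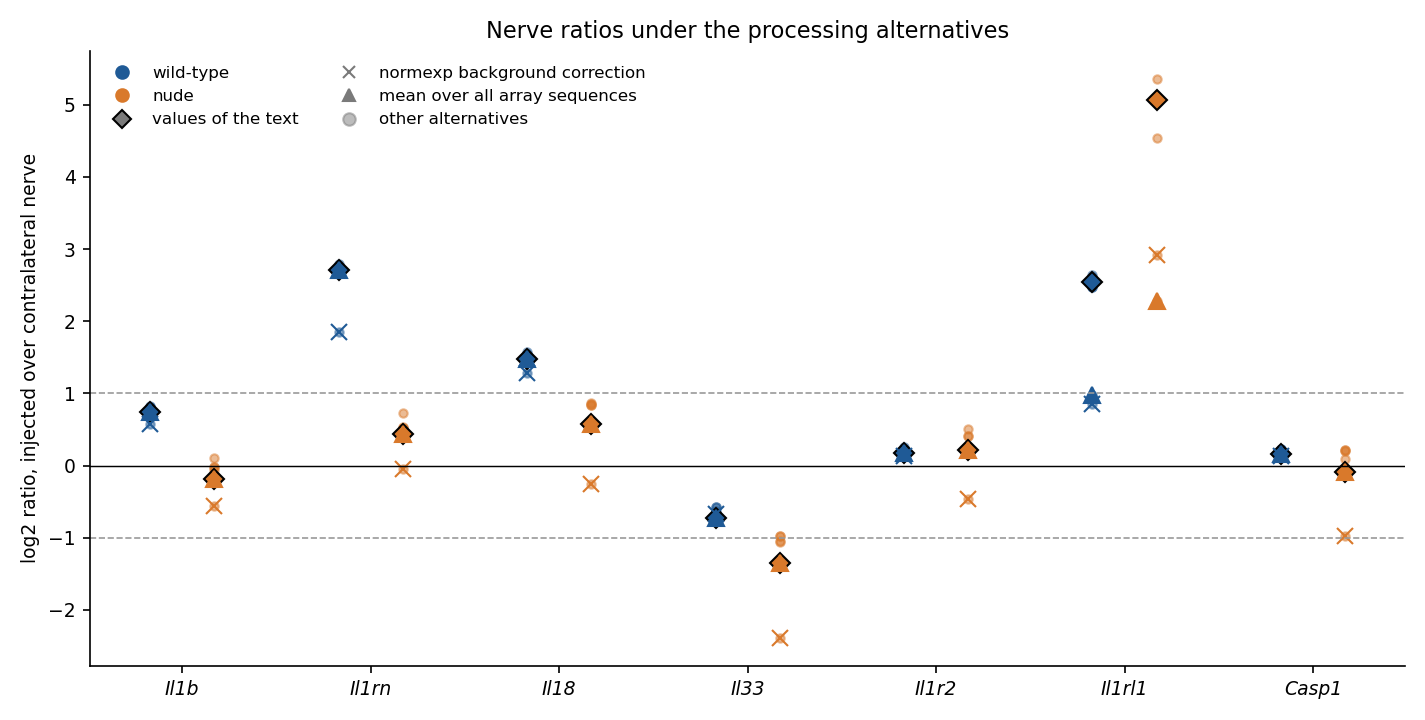
Log2 ratio of injected over contralateral nerve (y axis) of the 7 measured members under each processing alternative, wild-type in blue and nude in orange. Diamonds are the values of the text, crosses normexp background correction, triangles the mean over a gene's probes, pale dots the other alternatives, and dashed lines 2-fold. Il1rn and Il18 stay past 2-fold in wild-type, from 1.85 to 2.79 and from 1.28 to 1.57. The nude values of Il1b, Il1rn, Il1r2, Il18 and Casp1 lie on both sides of 0.

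**Figure D4:**
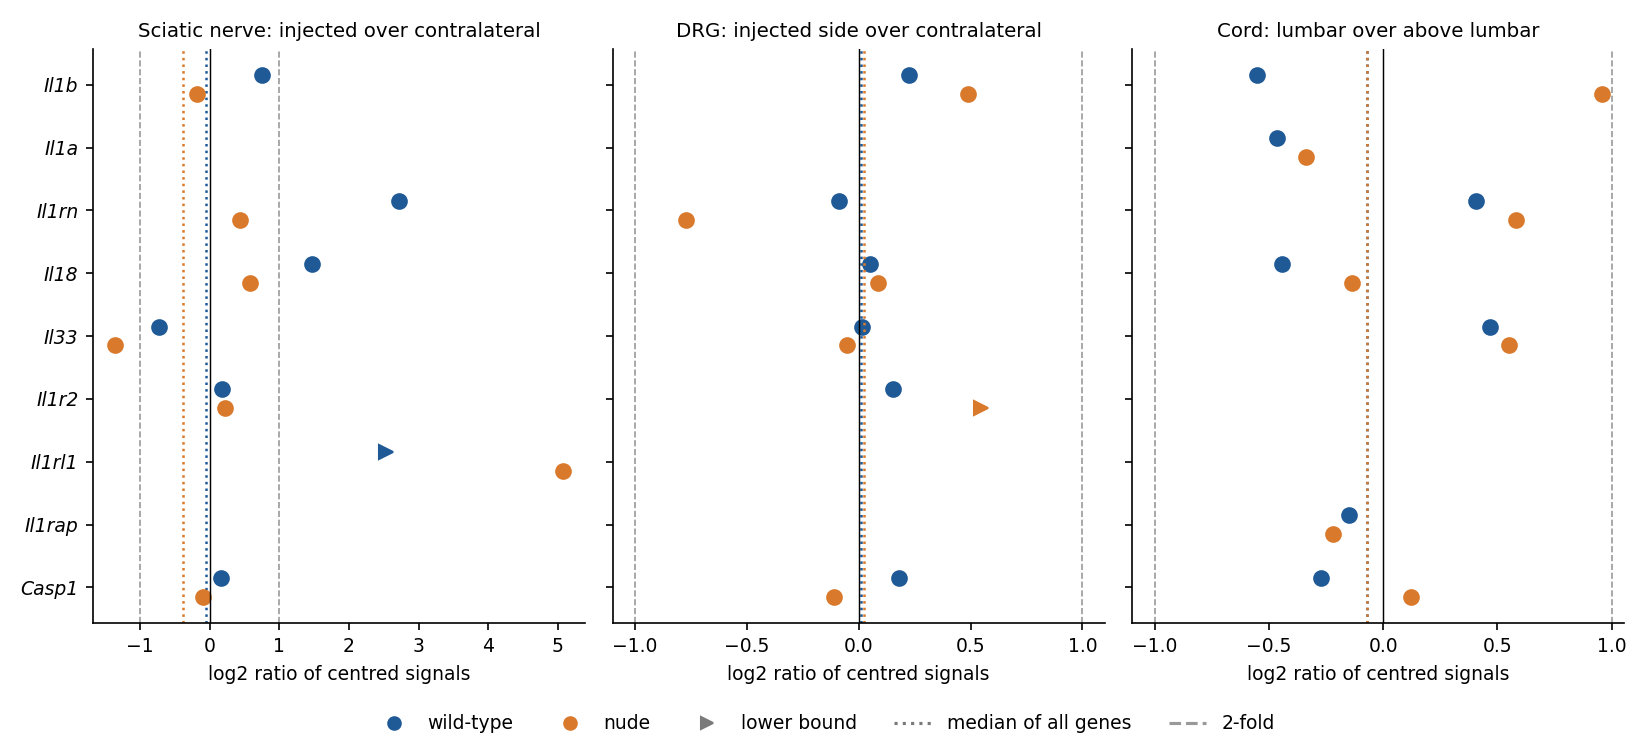
Log2 ratio of centred signals (x axis, a scale of its own in each panel) of each member in nerve, DRG and cord. Blue is wild-type, orange nude, triangles are lower bounds, dotted lines the median of all genes and dashed lines 2-fold. Members past 2-fold lie in the nerve panel: Il1rn, Il1rl1 and Il18 in wild-type, and Il1rl1 and Il33 in nude rats.

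Il1rn had the higher nerve ratio in wild-type rats. The wild-type minus nude log2 ratio was 2.28 for Il1rn, rank 15 of 9399 genes from the top. For Il1rl1 the wild-type ratio is a lower bound, so with median centring the difference of -2.53 is the widest that the brighter probe allows. Scaling to the 75th percentile gave -2.75, and the mean over both probes gave -1.31. For Il1b it was 0.93, for Il18 0.89, for Il33 0.62, for Casp1 0.25 and for Il1r2 -0.04, beside a median of 0.35 over all genes. Without replicates these differences were not tested, and by the labels each sets day 12 in one strain against day 7 in another.

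The promoters of the 3 members that were higher together in the injected wild-type nerve are shown as the sequence next to those differences. They are RefSeq windows on GRCr8 of 250 bases before to 50 after a start site. For Il18 that site is the first base of the gene's span, whereas the other windows lie inside the spans of Il1rn (chr3:27509836-27525738) and Il1rl1 (chr9:50157326-50222888), downstream of where these begin, and which transcript starts there is not given in the sources used here. Capitals mark matches to any of 4 motifs searched on both strands: the NF-kB consensus, the AP-1 site TGANTCA, the PU.1 core GAGGAA and the TATA box TATAAA.
Il1rn, chr3:27520072-27520371, plus strand: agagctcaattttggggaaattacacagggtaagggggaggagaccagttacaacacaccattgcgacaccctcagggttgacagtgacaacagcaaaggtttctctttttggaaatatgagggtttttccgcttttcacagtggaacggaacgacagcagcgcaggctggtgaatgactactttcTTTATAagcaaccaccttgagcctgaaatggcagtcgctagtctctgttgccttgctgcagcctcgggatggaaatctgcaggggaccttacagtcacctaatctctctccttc
Il1rl1, chr9:50203388-50203687, plus strand: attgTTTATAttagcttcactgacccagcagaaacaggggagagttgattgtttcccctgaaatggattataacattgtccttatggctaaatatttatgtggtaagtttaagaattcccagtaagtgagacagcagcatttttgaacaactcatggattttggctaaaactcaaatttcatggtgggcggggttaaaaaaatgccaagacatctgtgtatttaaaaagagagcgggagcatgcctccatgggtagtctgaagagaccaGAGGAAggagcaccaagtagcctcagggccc
Il18, chr8:59801822-59802121, plus strand: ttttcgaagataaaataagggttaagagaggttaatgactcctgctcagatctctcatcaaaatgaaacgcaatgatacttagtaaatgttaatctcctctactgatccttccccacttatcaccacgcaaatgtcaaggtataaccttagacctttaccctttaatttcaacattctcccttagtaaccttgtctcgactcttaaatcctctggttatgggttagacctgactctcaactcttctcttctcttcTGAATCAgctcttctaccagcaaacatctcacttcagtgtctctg
Among 33469 rat promoters of this length the NF-kB consensus occurred in 7.51%, the AP-1 site in 7.33%, the PU.1 core in 27.6% and the TATA box in 14.2%. The 3 promoters had no motif in common to all of them. The Il1rn window held a TATA box match on the minus strand, the Il1rl1 window a TATA box match on the minus strand and a PU.1 core, and the Il18 window an AP-1 site just after the start. These matches are descriptions of the letters, and the NF-kB consensus was in none of the 3 windows.

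The rest of the pathway was read from lists of genes with known roles. Of 22 IL-1 receptor signaling genes on the array, 21 were measured in the wild-type nerve, 12 had a ratio above 0 and 1 was at least 2-fold higher, Nfkbie, an inhibitor of NF-kB (log2 1.38, and -0.20 in the nude nerve). The p38 kinase activators differed from each other, with Map2k3 at 0.65 and Map2k6 at -0.73, and the receptor kinase Irak1 stood at -0.57. In nude rats 5 of 20 measured genes were above 0 and none was past 2-fold. The list medians were 0.16 and -0.30, beside -0.05 and -0.38 for all genes. Ratios above 0 made up 44.7% of all genes on the wild-type pair and 28.1% on the nude pair. In the wild-type nerve 4.68% of all genes passed 2-fold upwards, so 1 gene among 21 is close to that share. Nfkbie is therefore given as a single value and not as a result for the list. On the nude pair 7.52% of all genes passed 2-fold upwards and 13.5% downwards.

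Of the inflammasome and cytokine processing list, 8 genes were measured in the wild-type nerve, 7 were above 0, and 1 was at least 2-fold higher, Ctsb, the lysosomal protease cathepsin B (log2 1.12, and 0.41 in the nude nerve). The inflammasome adaptor Pycard stood at 0.41 in wild-type and -0.06 in nude nerve. Txnip, a thioredoxin inhibitor, stood at -0.32 and -1.48, and Mefv, which encodes pyrin, at 0.29 and -1.09. In nude rats 3 of 7 measured genes were above 0 and 2, Txnip and Mefv, were at least 2-fold lower. Nlrp1a, a gene named after its value was seen, was the 1 at least 2-fold higher. The list medians were 0.35 and -0.06, beside -0.05 and -0.38 for all genes. Of all genes, 4.68% were at least 2-fold higher in the wild-type nerve, and 7.52% higher and 13.5% lower in the nude nerve.

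Among the other family members, 6 of 11 on the array were measured in the wild-type nerve, 4 were above 0 and 1 was at least 2-fold higher. That gene was Sigirr, an inhibitory receptor measured on the injected side only (log2 at least 1.24, a gene named after its value was seen). In the nude nerve 3 were measured, 1 was above 0 and none was past 2-fold. The list medians were 0.43 and -0.27, beside -0.05 and -0.38 for all genes. Of all genes, 4.68% were at least 2-fold higher in the wild-type nerve, and 7.52% higher and 13.5% lower in the nude nerve. Il18bp, the secreted binding protein that neutralizes IL-18, stood at 0.58 in wild-type and -0.27 in nude nerve. It stayed behind Il18 by 0.89 and 0.85 on the log2 scale. Il36rn, the IL-36 receptor antagonist, stood at -0.46 in wild-type and 0.74 in nude nerve, and Il1f10 at -0.46 and -0.62.

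Textbook target genes of IL-1 included higher ratios than the other pathway lists. In the wild-type nerve 20 of 27 on the array were measured, 17 were above 0 and 7 were at least 2-fold higher, with a list median of 0.57. In nude rats 18 were measured, 11 were above 0, 6 were at least 2-fold higher and 1, Cxcl1, at least 2-fold lower, with a median of 0.68. The medians of all genes were -0.05 and -0.38, and 4.68% and 7.52% of all genes were at least 2-fold higher. Ptx3, a pattern recognition protein, had log2 ratios of 4.58 in wild-type and 1.72 in nude nerve, and Hp, the acute-phase protein haptoglobin, 2.93 and 1.12. Ccl2, which draws monocytes, had 2.36 and 2.15, and Timp1, an inhibitor of metalloproteinases, 2.16 and 2.14. These genes answer to many other signals as well, and the list says only how its members stood.

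**Figure D5:**
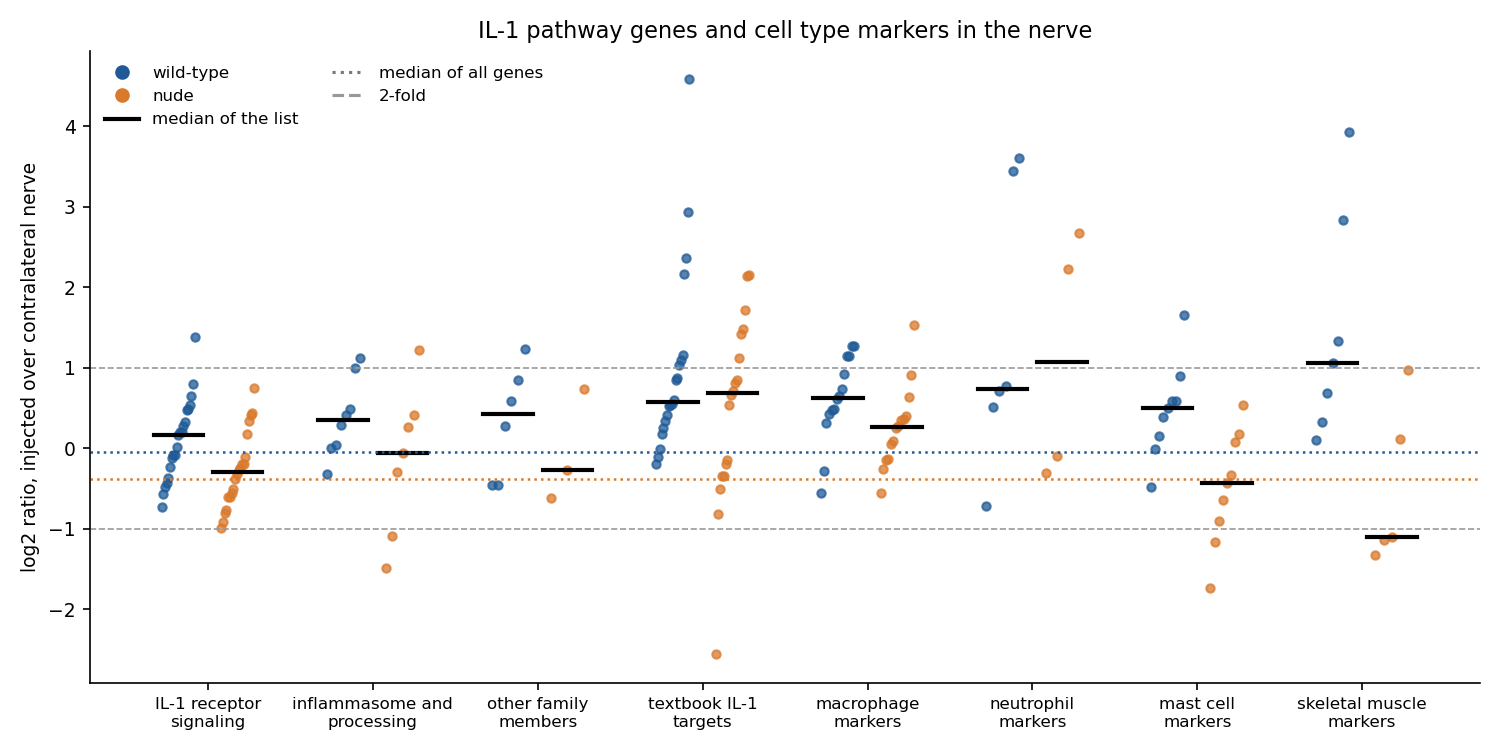
Log2 ratio of injected over contralateral nerve (y axis) for each measured gene of 4 pathway lists and 4 cell type marker lists, wild-type in blue and nude in orange. Black bars are list medians, dotted lines the medians of all genes and dashed lines 2-fold. The textbook IL-1 targets had medians of 0.57 and 0.68, and the skeletal muscle markers stood above 0 in wild-type and had a median of -1.11 in nude nerve.

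Markers of other cells differed between the nerves too, and those named were chosen after their values were seen. In the wild-type nerve 12 of 14 measured macrophage markers were above 0 and 4 at least 2-fold higher (Cd68, Cd14, Fcgr1a and Lyz2), their summed signal being 2870 against 1462 times the array median. In nude rats 10 of 14 were above 0 and 1, Cx3cr1, was at least 2-fold higher, with sums of 2092 and 1690. The macrophage list medians were 0.63 for wild-type and 0.26 for nude nerve, beside -0.05 and -0.38 for all genes. Of all genes, 44.7% were above 0 on the wild-type pair and 28.1% on the nude pair. The lower nude count thus does not by itself show a smaller macrophage difference. Of the neutrophil markers 2 of 6 measured were at least 2-fold higher in the wild-type nerve (S100a8 and S100a9, the list summing to 16.8 against 6.09) and 2 of 4 in the nude nerve (the same genes, 12.2 against 6.82), while the granule genes Elane, Mmp8 and Ngp were well above background on none of the 4 nerve arrays. Mast cell markers, of cells that carry ST2, were above 0 for 7 of 9 in wild-type (summed 334 against 250.2) and 3 of 9 in nude nerve (212.4 against 280.8). Skeletal muscle markers were at least 2-fold higher for 4 of 7 in the wild-type nerve (Ckm, Myh1, Myh4 and Tnnc2, 74.5 against 28.0). In the nude nerve 3 of 5 were at least 2-fold lower (Ckm, Tnnc2 and Actn3, 16.7 against 15.8 for the list). Adipocyte markers were at least 2-fold lower for 3 of 4 in both (Adipoq, Fabp4 and Cidec). Of the T cell markers, 1 of 5 measured was at least 2-fold higher in the wild-type nerve, Cd8a, and 1 of 2 in the nude nerve, Cd3d. Of all genes, 4.68% were at least 2-fold higher and 4.08% lower on the wild-type pair, and 7.52% higher and 13.5% lower on the nude pair. The part of these cell types in the members' ratios was not tested.

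No member was at least 2-fold higher or lower in the DRG of either rat type, a contrast that did not choose the genes. In wild-type DRG 0.489% of 10831 genes stood 2-fold or more above the contralateral side and 0.517% below it, and in nude DRG 0.682% of 9537 genes above and 0.388% below. The 6 measured members ran from -0.09 (Il1rn) to 0.22 (Il1b) in wild-type and from -0.77 (Il1rn) to 0.55 (Il1r2, a bound) in nude DRG. In nude DRG Il1rn had signals of 14.7 and 21.6 on the injected and contralateral side, close to the floors of 10.4 and 10.53, and Il1b had 61.8 and 37.8, a log2 ratio of 0.49. Il33 had ratios near 0 in both, with signals of 2556 and 1650 in wild-type DRG (log2 ratio 0.02) and 841 and 747 in nude DRG (log2 ratio -0.05). The nude DRG comparison also held 3 of 4 measured neutrophil markers (S100a8, S100a9 and Camp) and 4 of 6 measured skeletal muscle markers (Ckm, Myh1, Tnnc2 and Actn3) at least 2-fold higher, and their part in the Il1b value was not tested.

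No member was past 2-fold in the cord either, where 0.913% of 11065 genes stood 2-fold or more above the upper cord and 0.831% below it in wild-type, and 0.776% of 10689 genes above and 0.589% below it in nude rats. The largest value was that of Il1b in nude cord, with signals of 45.0 in lumbar cord and 22.3 above it (log2 0.96, spot SE 0.11), and in wild-type cord the signals were 20.8 and 41.9 (log2 -0.55, spot SE 0.06). The 2 cords thus stood in opposite order, and the wild-type minus nude difference of -1.51 ranked 54th from the bottom of 10587 genes. The summed signal of the neutrophil markers stood in the same order, at 3.49 against 7.22 in wild-type and 15.5 against 9.38 in nude cord. In wild-type cord none of 7 measured was above 0 and 3 were at least 2-fold lower (S100a8, S100a9 and Camp). In nude cord 4 of 5 were above 0, and the 1 at least 2-fold higher was another gene, Ly6g6c. It stands on the list and enters its sums, but it is not an established neutrophil marker. None of S100a8, S100a9 and Camp was past 2-fold in nude cord. Their part in the Il1b values was not tested.

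Il33 and Il1rn had ratios above 0 in both cords. Il33 had signals of 659.2 in lumbar cord and 655.9 above it in wild-type rats, whose array medians were 54.4 and 74.9 (log2 0.47, spot SE 0.04), and 658.4 and 432.6 in nude rats (log2 0.55, spot SE 0.05). Il1rn had signals of 76.2 in lumbar cord and 79.1 above it in wild-type rats (log2 0.41, spot SE 0.18). The raw signal was thus lower in lumbar cord there, and the ratio above 0 came with the scaling of the arrays. In nude rats the Il1rn signals were 99.6 and 64.1 (log2 0.58, spot SE 0.15). Il1a, with signals of 23.2 to 44.2 on the 4 cord arrays, had -0.47 and -0.34, and Il1rap, the shared accessory receptor, -0.15 and -0.22. Il18 had -0.44 and -0.14, and Casp1 -0.27 and 0.12. Schwann cell markers were at least 2-fold higher for 3 of 6 in lumbar cord of both rat types (Pmp22, Prx and Egr2). Their summed signal was 918 against 941 in wild-type and 819 against 815 in nude rats. Astrocyte and oligodendrocyte markers were above 0 for 3 of 10 in wild-type and 0 of 10 in nude cord. They summed to 1448 against 2242 and 1451 against 2217, and Gfap was at least 2-fold lower in both. The part of these cells in the members' ratios was not tested. Lumbar and upper cord differ by segment as well as by the input from the injected nerve, and the design cannot tell these apart.

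Genes with the most similar profiles were sought for the 5 members measured on every array, among 8918 genes, by the root mean square difference of the 12 levels after each gene's mean was taken off. Casp1 had the closest match, Arhgap18, at 0.11 log2 units, followed by Gpx8 at 0.18 and Kcnj8 at 0.22. Il33 was most like Car13 (0.21), Uaca (0.22) and Sult1a1 (0.25). Car13, Uaca and Sult1a1 had nerve ratios below 0 in both rat types, as Il33 had. The search included the nerve arrays, so this follows in part from how the genes were picked. Il18 was most like Sertad4 (0.25), Gpr34 (0.26) and Tpp1 (0.28). Il1b was most like Hcst (0.35), Tm4sf1 (0.35) and Olfml3 (0.36), and Il1rn had Upp1 (0.47) and B3gnt7 (0.57) among its 3 closest. The 12 arrays share their tissues, so these likenesses hold the differences between tissues too.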

How the data were processed

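RNA of pooled rat nerve, DRG and dorsal cord was hybridised to 12 one-colour Agilent rat 8x60K arrays. The deposited intensities were background-corrected spot signals, which per the file headers Agilent Feature Extraction 10.7.3.1 wrote (10.5 in the submitters' processing notes). The deposited flags mark spots well above background or outlying. The authors also deposited a log2 table normalized in GeneSpring, whose sorted columns differed by at most 0.001531. It was used as an alternative. Here, outlier spots were dropped, log2 signals averaged per probe and centred on the array median (Python 3.11.15, pandas 2.3.3; alternatives with limma 3.58.1 in R 4.3.3). Of 30367 probes, 18006 were named through RefSeq accessions on GRCr8, giving 15159 genes, each read from its brightest probe. A gene entered a comparison when well above background on at least 1 of the 2 arrays, and 2-fold was the threshold. The study's t-test could not be run with 1 array per condition, and the number of arrays limits the precision. The code was tested on simulated data.

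The members and all gene lists were chosen with earlier results of these data known. Named are all 10 members and the 3 most similar profiles of each member well above background on at least 10 arrays. Also named are up to 4 genes per pathway list, those with the largest absolute log2 ratio in the wild-type nerve among genes measured on both arrays. A few genes of the marker lists and of the similar profiles are not reported here, and list counts and sums leave them out. The labels give pools of 3 rats and day 12 or 7, while the study's methods give 1 time point for both rat types.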

Additional observations from a re-analysis of the deposited data

Results flagged for a closer look

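Il1b had centred ratios of opposite sign in the rat types in 2 tissues. In the nerve its log2 ratio was 0.75 on the wild-type pair and -0.18 on the nude pair, a difference of 0.93. Relative to the median of all genes both nerve ratios were above 0, at 0.80 and 0.20, so the opposite sign there rests on the centring. The cord pairs gave -0.55 and 0.96, a difference of -1.51. Each value rests on 1 array pair, and neither difference was tested. The nude nerve value also changed sign when arrays were scaled to the 75th percentile (0.11), and with normexp background correction the cord difference shrank to -0.36.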

How the results depend on the processing

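No paired analysis was possible because each condition has 1 array, so leaving out a replicate was not possible either. Of 132 counts of members past the threshold under another setting, 121 stayed within 1.5 times the reported count. In the nude nerve, no member was at least 2-fold lower (0 in place of 1) under quantile normalization, in the authors' normalized values and at 3-fold, and 3 were higher with no filter and no floor. With no filter and no floor 1 member was lower in the wild-type nerve, and 1 and 2 were higher in wild-type and nude DRG. With the 75th percentile 1 member, Il1b, was higher in nude cord. At 1.5-fold 1 was lower in the wild-type nerve, 1 lower in nude DRG and 1 higher in nude cord. The cause was not tested, beyond the threshold or filter that each setting changes.

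Of 533 single values, 515 moved by less than 1.5-fold and none past 2-fold changed sign. In the nude nerve the ratios of Il1b, Il1rn, Il1r2, Il18 and Casp1, all under 2-fold, changed sign in at least 1 alternative. The Il1rn ratio in the wild-type nerve ran from 1.85 to 2.79 and that of Il18 from 1.28 to 1.57, both past 2-fold under all 9 alternatives. Normexp correction, which adds an offset of 50 to signals of this size, gave the lowest value of both. Il1rl1 ran from 0.85 to 2.64 in the wild-type and from 2.29 to 5.36 in the nude nerve, and Il33 from -2.39 to -0.98 in the nude nerve. Signals near the floors of 9.42 to 13.97 limit Il1a, Il1rap and Il1b in cord, Il1rn and Il1r2 in nude DRG, and Il1rl1 in the contralateral wild-type nerve.

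Counts over all genes moved more. In the wild-type nerve 478 genes were higher and 417 lower, against 201 and 107 with normexp and 831 and 742 with no filter and no floor. In the nude nerve, where 711 were higher and 1280 lower, normexp gave 27 and 4080, no filter and no floor 4085 higher, quantile normalization 641 lower, cyclic loess 851 lower and the authors' normalized values 645 lower. At 1.5-fold the wild-type nerve had 1107 higher and 1316 lower and the nude nerve 1323 and 3392, and at 3-fold 184 and 88, and 168 and 213. With the 75th percentile the nude nerve had 1128 higher and 530 lower. The DRG and cord counts of 37 to 101 ran, at 2-fold, from 2 with normexp to 373 with no filter and no floor. They ran from 285 to 615 at 1.5-fold and from 1 to 33 at 3-fold.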
